A study of Mus musculus with 6 samples.

Results

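Type I interferon stimulated genes were followed in CD4+YFP+ T cells of mouse lymph nodes in which Cre could act on both copies of Dicer (KO) or on a single copy (Het). The set holds 40 genes taken by name, and a gene was measured where a probe set of the array was annotated with its symbol alone, the brightest such probe set standing for the gene. By this rule 37 of the 40 were measured, out of 13280 genes in all, and all 37 passed the filter on dim probe sets. Isg15, Oas1g and Ifi44 had no probe set annotated with their symbol alone and were not analysed here.

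The series compared 3 arrays of KO cells with 3 arrays of Het cells, each group with arrays A, B and C. KO mice were Dicerlox/lox and Het mice Dicerwt/lox, and mice of both groups carried FoxP3-GFP-hCre, which places Cre under Foxp3, and the Cre-dependent reporter ROSA26R-YFP. Cre thus also acted on the single lox copy in Het cells, and the YFP gate holds cells that have made Cre at some time, whether or not they still express Foxp3. The labels give neither the age of the mice nor the number of animals behind an array, and nothing says that the arrays of a group came from separate animals, so the p-values measure the spread between these arrays only, which may be technical.

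Type I interferons bind the receptor IFNAR on almost every cell and, through the kinases JAK1 and TYK2, activate the factor ISGF3, which contains STAT2 and IRF9. ISGF3 binds the interferon-stimulated response element in the promoters of many genes, whose products sense foreign nucleic acids, block viral replication or restrain the response itself. Interferon gamma uses another receptor and acts mainly through the gamma-activated site, and many interferon stimulated genes answer to both kinds of interferon. In regulatory T cells, Foxp3 marks the lineage, and Dicer makes the mature microRNAs.

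Promoters are shown first, because the members are defined by their response to interferon and the letters let a reader see which of them carry the binding core. RefSeq promoters (GRCm38.p6, 250 bases before to 50 after the start of transcription) were matched by symbol for 30 of the 40 members. The core of the interferon-stimulated response element was searched as GAAANNGAA on both strands (TTCNNTTTC on the other strand), and the core of the gamma-activated site as TTCNNNGAA, which is its own reverse complement. The printed promoters run 5′ to 3′ toward the start in lower case, with both kinds of core in capitals and cores that overlap run together. Isg20 and Samhd1 are shown because they passed the test below, and Oas1a and Ddx58 because they are the next members by p-value whose promoter held the response element core. The Isg20 stretch covers chr7:78913274-78913423 on the plus strand, and it belongs to the 1 of 3 listed starts that held a core. The Samhd1 stretch covers chr2:157135097-157135341 on the minus strand, the Oas1a stretch chr5:120907526-120907675 on the minus strand, and the Ddx58 stretch, which runs to position 20 after the start, chr4:40239806-40239985 on the minus strand. The Ifit1 stretch, chr19:34640770-34640823 on the plus strand, was added after its values were seen, as a promoter with 3 response element cores and a small difference between the groups.
Isg20: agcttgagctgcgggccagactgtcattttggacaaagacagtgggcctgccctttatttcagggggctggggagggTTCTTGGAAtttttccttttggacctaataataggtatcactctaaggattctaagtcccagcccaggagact
Samhd1: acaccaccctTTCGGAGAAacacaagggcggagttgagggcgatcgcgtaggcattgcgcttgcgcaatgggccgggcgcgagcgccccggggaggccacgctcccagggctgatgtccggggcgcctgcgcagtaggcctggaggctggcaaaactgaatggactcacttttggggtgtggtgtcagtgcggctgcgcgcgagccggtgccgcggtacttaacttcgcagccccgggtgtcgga
Oas1a: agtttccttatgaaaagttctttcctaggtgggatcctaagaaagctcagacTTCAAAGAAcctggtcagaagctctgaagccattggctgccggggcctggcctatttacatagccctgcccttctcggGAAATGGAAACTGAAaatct
Ddx58: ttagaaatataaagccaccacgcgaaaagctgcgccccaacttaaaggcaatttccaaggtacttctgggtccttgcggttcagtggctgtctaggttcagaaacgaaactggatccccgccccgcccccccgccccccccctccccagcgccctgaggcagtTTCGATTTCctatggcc
Ifit1: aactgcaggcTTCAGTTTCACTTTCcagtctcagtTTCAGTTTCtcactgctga

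In these letters Isg20 and Samhd1 held 1 gamma-activated site core each and no response element core. Oas1a held 1 gamma-activated site core and 2 overlapping response element cores just before the start, and Ddx58 held 1 response element core just after the start. The response element core was found in the promoters of 16 of the 30 members (53.3%), against 2638 of 27025 genes with a promoter in the table (9.76%). The gamma-activated site core was found in 8 of the 30 members (26.7%), against 2582 of the 27025 genes (9.55%). Both cores were found in 4 of the 30 members (13.3%), against 384 of all genes (1.42%), and the search let them overlap. A match describes the letters only and is not a binding site, and a promoter without a match says nothing of a factor that may bind elsewhere.

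**Figure D1:**
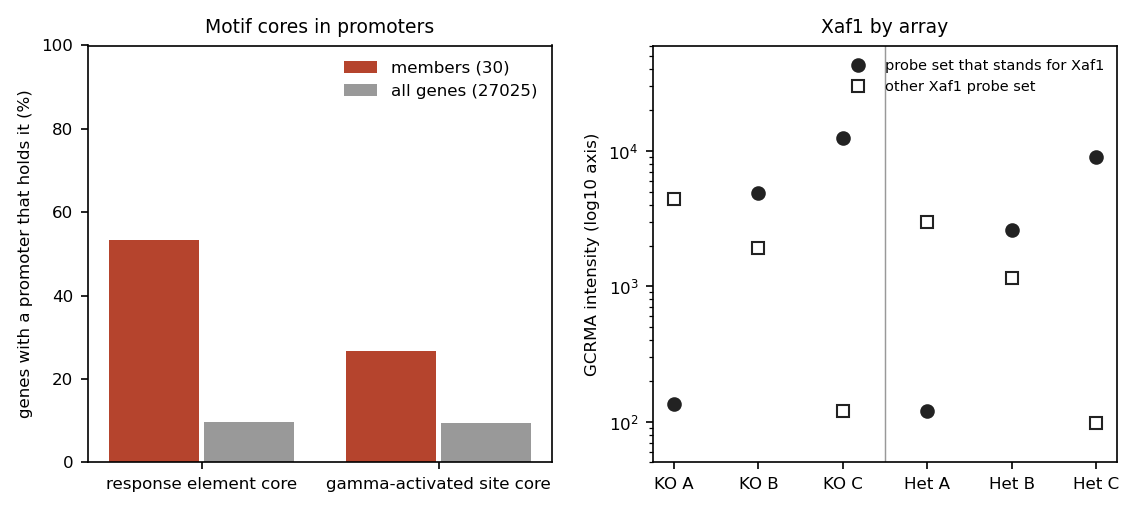
Left, the share of genes (%) whose RefSeq promoter holds the response element core or the gamma-activated site core, for 30 members and for all 27025 genes with a promoter; members stand at 53.3% and 26.7%, all genes at 9.76% and 9.55%. Right, GCRMA intensity (log10 axis) of both Xaf1 probe sets on each array, the probe set that stands for the gene as filled circles and the other as open squares; they run in opposite order from A to C in KO and in Het.

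Before the members, the deleted gene was examined. The brightest Dicer1 probe set read 1029, 1053 and 1187 in KO A, B and C, against 1203, 1077 and 1059 in Het A, B and C (log2 difference KO minus Het -0.03, adjusted p = 0.891 by limma). The second Dicer1 probe set read 896.7, 975.9 and 709.2 in KO, against 1218, 1120 and 1345 in Het, without overlap but not past the test (log2 -0.52, adjusted p = 0.145). Where these probes lie relative to the lox sites is not known here, so they do not check the labels. Foxp3 read 5453, 9417 and 5420 in KO, against 9960, 8945 and 9769 in Het, with overlap and not past the test (log2 -0.55, adjusted p = 0.285 by limma). Other listed markers of CD4 regulatory T cells ran in different directions. Il2ra and Ctla4 stood above Het on every KO array (log2 0.67 and 0.76, adjusted p = 0.244 and 0.0686 by limma). Cd3g lay below Het on every KO array (log2 -0.17, adjusted p = 0.318 by limma). Cd3e and Cd4 overlapped (log2 -0.11 and 0.12). In these bulk samples, fewer cells of a type and less RNA per cell cannot be told apart.

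Isg20, Zbp1 and Samhd1 rose in KO cells, no member fell, and most of the remaining members lay above Het by amounts that did not pass the test. A difference is the mean log2 of the deposited GCRMA intensity in KO minus that in Het, fitted by limma over 29507 probe sets with Benjamini-Hochberg adjustment over all of them and a threshold of 0.05. Of the 37 measured members 3 rose and 0 fell, where 1.37% of all genes rose and 0.956% fell. Before adjustment, 17 members were higher and 1 was lower at p under 0.05, where 10.7% of all genes were higher and 11.6% lower. Every KO array stood above every Het array for 17 of 37 members (45.9%), a separation that 13.2% of all genes showed. The opposite separation held for 1 member, Sp100, and for 16.8% of all genes. A positive difference was seen for 32 of 37 members (86.5%), against 43.4% of all genes, and the median difference was 0.44 for the members and -0.03 for all genes. The 40 names were chosen with earlier results of these arrays known, so no test of the list as a whole was made.

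**Figure D2:**
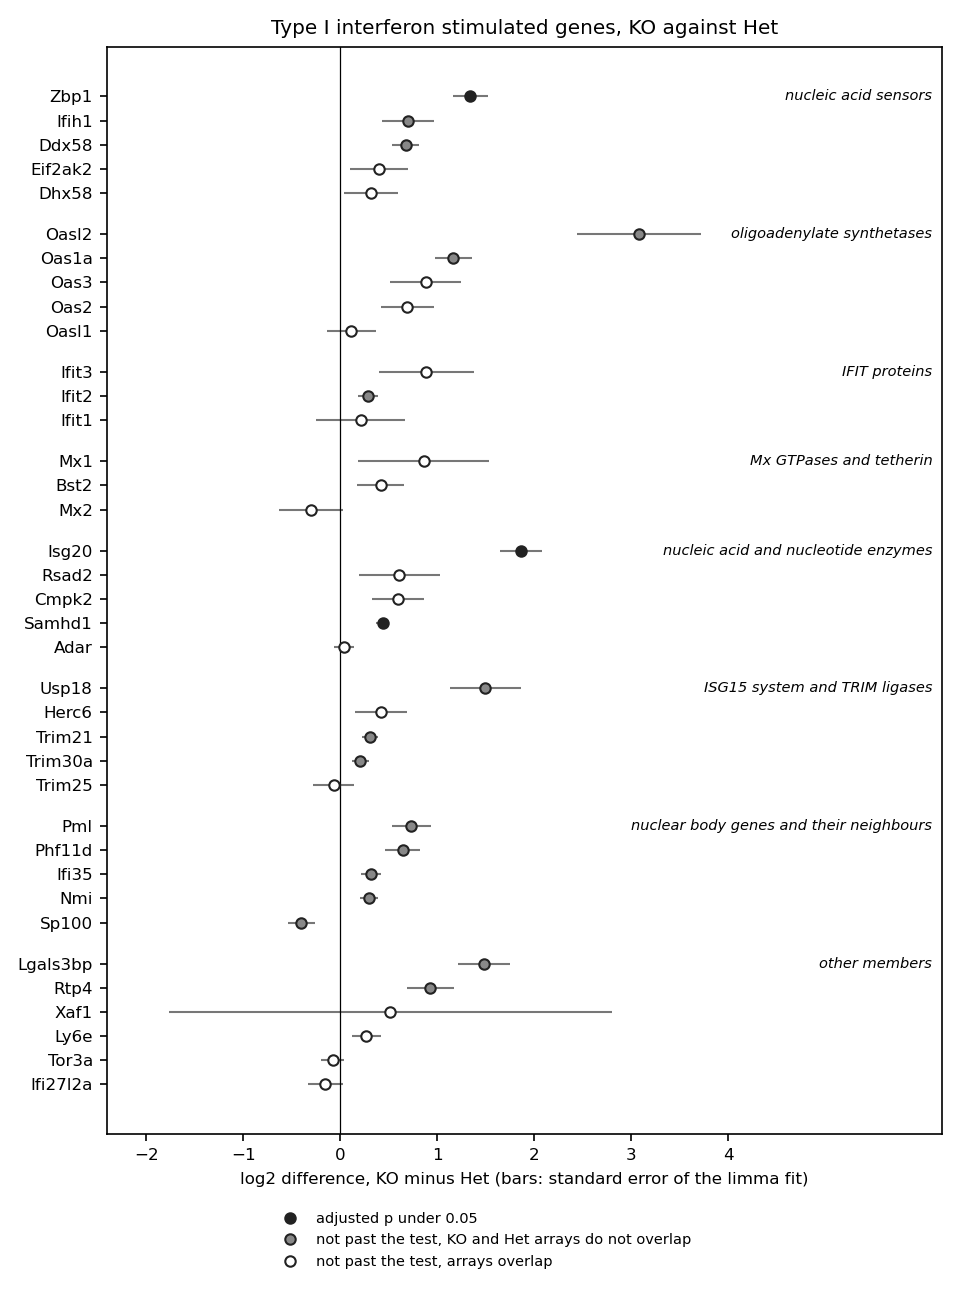
Log2 difference, KO minus Het, of the 37 measured members grouped by role, with bars for the standard error of the limma fit (3 arrays each). Filled black points (Zbp1, Isg20 and Samhd1) passed an adjusted p under 0.05, grey points did not pass but have KO and Het arrays that do not overlap, and open points overlap; 32 of 37 points lie right of 0.

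These calls rested on all 6 arrays. With any 1 array left out, 0 members were called by limma (before adjustment, 12 to 20 were higher and 0 to 1 lower at p under 0.05), and the number of probe sets called in the whole table was 0 to 176, against 525 with all arrays. The adjusted p without 1 array was 0.0514 to 0.105 for Isg20, 0.0667 to 0.134 for Zbp1 and 0.105 to 0.152 for Samhd1. The sizes moved less: Isg20 lay between 1.62 and 2.03, Zbp1 between 1.14 and 1.45 and Samhd1 between 0.42 and 0.45 on the log2 scale.

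Among the enzymes that act on nucleic acids and nucleotides, 2 of 5 members rose. Isg20, an exonuclease that degrades single-stranded RNA, read 4605, 4275 and 4419 in KO A, B and C, against 1343, 875 and 1545 in Het A, B and C. All 3 KO arrays lay close together and far above the Het arrays, of which Het B was lowest. The difference was 3.63-fold (log2 1.86 ± 0.22, SE; limma, adjusted p = 0.0277) on the 1 probe set of this gene. Samhd1, which breaks down the building blocks of DNA and so starves retroviruses, read 16458, 16566 and 16563 in KO, against 12465, 11861 and 12326 in Het. The arrays within each group almost coincided, so that a small difference of 1.35-fold passed (log2 0.44 ± 0.07; adjusted p = 0.0489). The other 4 Samhd1 probe sets gave log2 differences of 0.11 to 0.33 with adjusted p of 0.362 to 0.845, and the mean of all 5 gave 0.29 with adjusted p = 0.139, so the call belongs to the brightest probe set alone.

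The remaining enzymes overlapped between the groups. Rsad2, the gene of viperin, which makes a chain-terminating nucleotide, gave log2 0.61 (adjusted p = 0.493), and its dimmer probe sets gave 0.29 and 0.04. Its neighbour Cmpk2, a nucleotide kinase, gave 0.60 (adjusted p = 0.306), and a dim second probe set gave 0.01. Adar, the enzyme that edits adenosine in double-stranded RNA, read 2877 ± 126 in KO and 2804 ± 301 in Het (SD, n = 3; log2 0.04), and its dimmer probe sets gave 0.09 and -0.50, so the sign depends on the probe set.

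All 5 nucleic acid sensors had positive differences and 1 rose. Zbp1, a sensor of Z-form nucleic acids that can start inflammatory cell death, read 4024, 4103 and 6122 in KO, against 1877, 1742 and 1907 in Het. The Het arrays were tight, and KO C stood above the other KO arrays. The difference was 2.53-fold (log2 1.34 ± 0.18, SE; limma, adjusted p = 0.0377), and the dimmer Zbp1 probe set gave log2 1.19 with KO above Het on every array (adjusted p = 0.139). Ddx58, the gene of the RNA sensor RIG-I, read 1737, 1708 and 2128 in KO, against 1153, 1026 and 1312 in Het. The groups were apart on this probe set (log2 0.67 ± 0.14, adjusted p = 0.0780), while the dimmer Ddx58 probe sets gave 0.41 and -0.30 and overlapped. Ifih1, the gene of MDA5, a sensor of long double-stranded RNA, gave 0.70 without overlap (adjusted p = 0.246). Eif2ak2, the gene of the RNA-activated kinase PKR, gave 0.40 and Dhx58, the gene of LGP2, a helper of the other RNA sensors, 0.32, both with overlapping arrays, while a dimmer Eif2ak2 probe set gave 0.81 without overlap (adjusted p = 0.257). The dimmest Eif2ak2 probe set gave 0.03 and a dim Dhx58 probe set 0.77, both overlapping.

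Oligoadenylate synthetases make the second messenger that switches on RNase L, and their 5 measured members all had positive differences of which 0 passed (limma; before adjustment, 3 were higher at p under 0.05). Oas1a came nearest, at 483.6, 333.7 and 436.1 in KO, against 152.7, 194.9 and 210.9 in Het. The groups were apart by log2 1.16 ± 0.19 (SE), at adjusted p = 0.0535, and Oas1a passed under 3 of 16 alternatives (adjusted p 0.0352 to 0.157 over all of them). Oasl2, an oligoadenylate synthetase-like protein, had the largest difference of all 37 members, at 2164, 914.6 and 3059 in KO, against 134.2, 162.5 and 459.5 in Het. KO B was the lowest KO array and Het C the highest Het array, and this spread within both groups went with an adjusted p of 0.0798 at log2 3.08 ± 0.64 (8.45-fold). Oas3 gave 0.88 and Oas2 0.69 with overlapping arrays, and Oasl1 0.11.

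Usp18 was the member of the ISG15 system that differed most. ISG15 is a ubiquitin-like modifier, and Usp18 removes it from proteins and also binds the interferon receptor, where it dampens the signal. Usp18 read 3285, 2503 and 4305 in KO, against 1049, 796.2 and 1892 in Het, with every KO array above every Het array (log2 1.495 ± 0.37, SE; limma, adjusted p = 0.111). Herc6, which in mice attaches ISG15 to its targets, gave 0.42 with overlap (adjusted p = 0.465), and its other 3 probe sets gave 0.10 to 0.28, also with overlap. Of the TRIM ubiquitin ligases, Trim21, a cytosolic receptor for antibody, read 3495, 3596 and 3935 in KO, against 2973, 2994 and 2943 in Het (log2 0.31 ± 0.08, adjusted p = 0.122). On the dimmer Trim21 probe set the value was 0.50 with overlap. Trim30a gave 0.21 without overlap (adjusted p = 0.292) and 0.19 with overlap on its dimmer probe set. Trim25, which helps to activate RIG-I, read 4522, 4609 and 5243 in KO, against 4698, 3957 and 6768 in Het (log2 -0.07, adjusted p = 0.890), and its dimmer probe sets gave -0.09 and 0.42.

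The next role group holds the nuclear body genes Pml and Sp100, with Phf11d, Nmi and Ifi35 listed beside them. On the probe sets that stand for them, KO and Het arrays were apart in all 5 cases, 4 upward and 1 downward. Of all genes, 13.2% separated upward and 16.8% downward. By limma 0 of the 5 passed the test, and before adjustment 4 were higher and 1 lower at p under 0.05. Pml, the scaffold of PML nuclear bodies, read 1319, 2072 and 1730 in KO, against 911.7, 942.3 and 1198 in Het (log2 0.73 ± 0.20, SE; adjusted p = 0.137), and its second tested probe set gave 0.38, also without overlap. Sp100, another constituent of the same bodies, ran the other way on its brighter probe set, at 4648, 5363 and 5146 in KO, against 6677, 5659 and 7811 in Het (log2 -0.40 ± 0.14, adjusted p = 0.210). Its dimmer probe set gave 0.21 with overlap, so the direction for Sp100 depends on the probe set.

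Phf11d read 1325, 1200 and 1393 in KO, against 937.5, 641.5 and 963.5 in Het (log2 0.64, adjusted p = 0.141). Nmi and Ifi35, whose proteins bind each other, differed by small amounts. Nmi read 7220, 7822 and 8236 in KO, against 6770, 6205 and 5975 in Het (log2 0.30, adjusted p = 0.173). Ifi35 read 21824, 21733 and 23495 in KO, against 17649, 16379 and 20029 in Het (log2 0.31, adjusted p = 0.184). All 3 Ifi35 probe sets kept KO above Het, at 0.31 to 0.40.

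Several of the genes used most often to read out type I interferon differed little or overlapped. Ifit1, Ifit2 and Ifit3 encode proteins that bind foreign RNA and block its translation. Ifit1 read 783.1, 593.1 and 1130 in KO, against 598.9, 435.5 and 1297 in Het, where Het C was the highest of all 6 arrays (log2 0.21 ± 0.46, SE; limma, adjusted p = 0.842). Ifit3 read 1631, 1083 and 2237 in KO, against 948.7, 452 and 1457 in Het (log2 0.89 ± 0.49, adjusted p = 0.400), again with Het C above KO B. Ifit2 separated the groups by 0.28 (adjusted p = 0.220). Mx1, an antiviral GTPase, read 195.4, 243.5 and 280.9 in KO, against 136.2, 49.86 and 329.9 in Het (log2 0.86 ± 0.68, adjusted p = 0.556). Its Het arrays alone spanned the KO arrays on both sides. Mx2 lay between 24.54 and 59.45, below the median of its array on 5 of 6 arrays (log2 -0.30), in the range where the background step of GCRMA weighs most. Bst2, the gene of tetherin, which holds budding virus at the cell surface, gave 0.42 (adjusted p = 0.429).

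Of the remaining members Lgals3bp, a secreted galectin-binding glycoprotein, came nearest to the threshold, at 2446, 3520 and 4000 in KO, against 1035, 960.1 and 1600 in Het (2.79-fold, log2 1.48 ± 0.27, SE; limma, adjusted p = 0.0630). It passed under 2 of 16 alternatives (adjusted p 0.0443 to 0.235 over all of them). Rtp4, a chaperone of membrane receptors, read 5639, 4951 and 6370 in KO, against 3278, 2080 and 3780 in Het (log2 0.93 ± 0.24, adjusted p = 0.126). On the dimmer Rtp4 probe set the groups were apart too. In both genes all KO arrays were above all Het arrays. Ly6e gave 0.27, Ifi27l2a -0.16 and Tor3a -0.08, all overlapping, and the dimmer probe sets of Ly6e and Tor3a gave 0.39 and -0.03.

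Xaf1, whose protein binds the apoptosis inhibitor XIAP, differed between the array letters far more than between genotypes, and its arrays, like those of Ifit1 and Trim25, are given after their values were seen. Its brighter probe set read 134.4, 4896 and 12505 in KO A, B and C, against 120.4, 2611 and 8947 in Het A, B and C. Its other probe set ran the opposite way, at 4433, 1908 and 119.9 in KO, against 3000, 1158 and 97.26 in Het. On each probe set the order of the letters was the same in both genotypes, and the difference between the genotypes was small beside it (log2 0.52 ± 2.28 and 0.53 ± 1.81, SE).

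**Figure D3:**
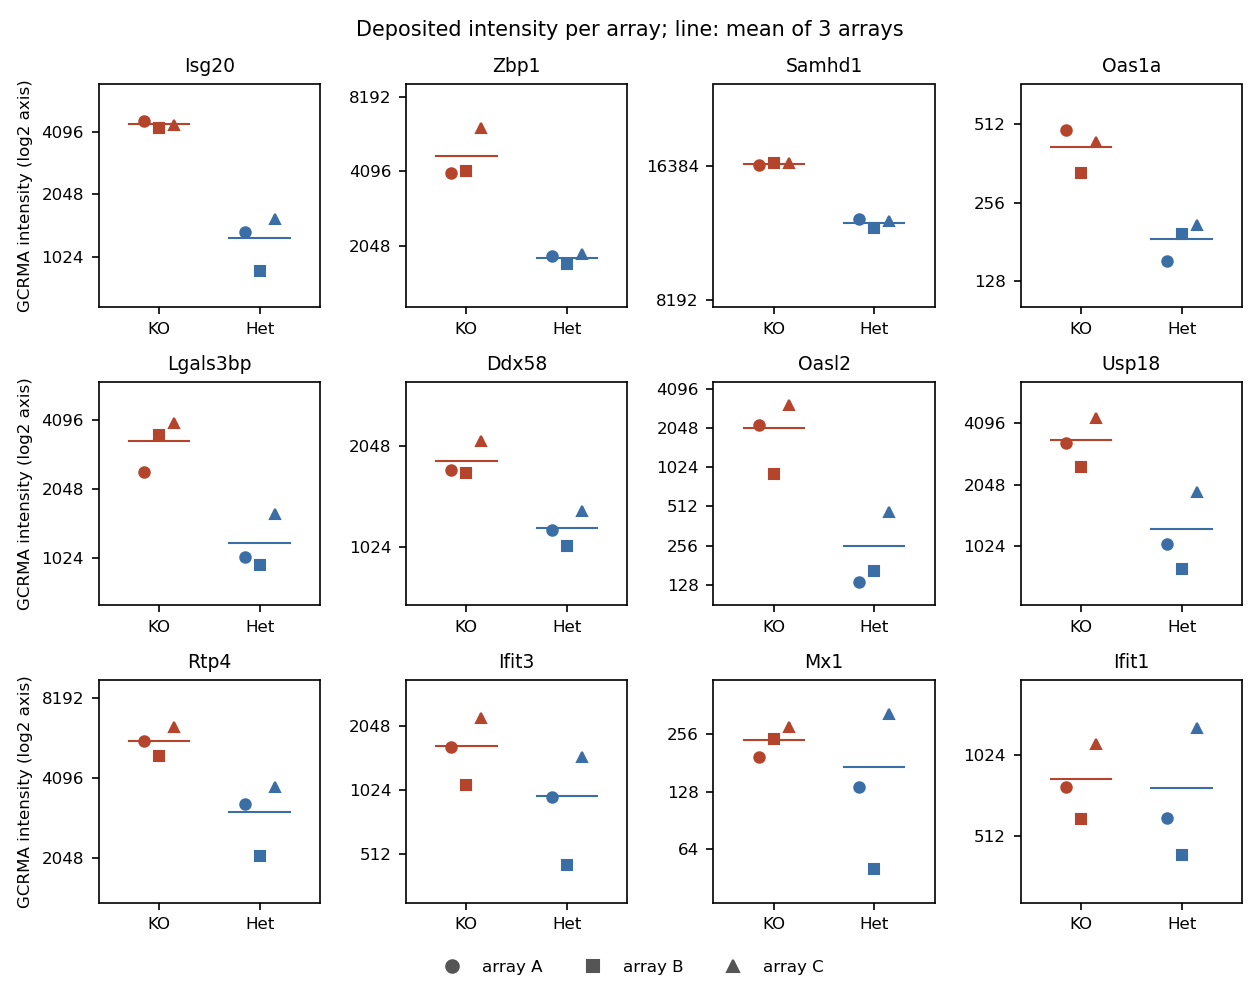
Deposited GCRMA intensity (log2 axis, its own range in each panel) of 12 members on the 3 KO arrays (left, red) and the 3 Het arrays (right, blue), with circles, squares and triangles for arrays A, B and C and a line for the mean of 3 arrays. Isg20, Zbp1 and Samhd1 are apart and passed the test, Oas1a, Lgals3bp, Ddx58, Oasl2, Usp18 and Rtp4 are apart and did not pass, and in Ifit3, Mx1 and Ifit1 the triangle of Het C reaches into the KO arrays or above them.

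The spread between arrays of a group was set beside that of all genes. The median SD of a member's log2 intensity was 0.20 over the KO arrays and 0.37 over the Het arrays, against 0.15 over the KO arrays and 0.14 over the Het arrays for all genes. In 27 of 37 members the Het arrays were more spread than the KO arrays, a count that was not made for all genes. Het C was the highest Het array for 29 of 37 members and Het B the lowest for 25. For all genes Het C was the highest in 41.5% and Het B the lowest in 47.1%. KO C was the highest KO array for 24 of 37 members, where it was so for 24.7% of all genes. Measured from each member's Het mean, the median over the members was 0.43, 0.32 and 0.68 on the log2 scale in KO A, B and C, against 0.00, -0.23 and 0.32 in Het A, B and C. The same median for all genes stayed within 0.05 of 0 on every array. Het C thus stood close to KO B over the set, and it exceeded all 3 KO arrays in 7 members (Ifit1, Mx1, Mx2, Adar, Trim25, Sp100 and Ifi27l2a). The share of all genes with Het C above all 3 KO arrays was not counted. Without Het C the median difference of the members was 0.66.

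**Figure D4:**
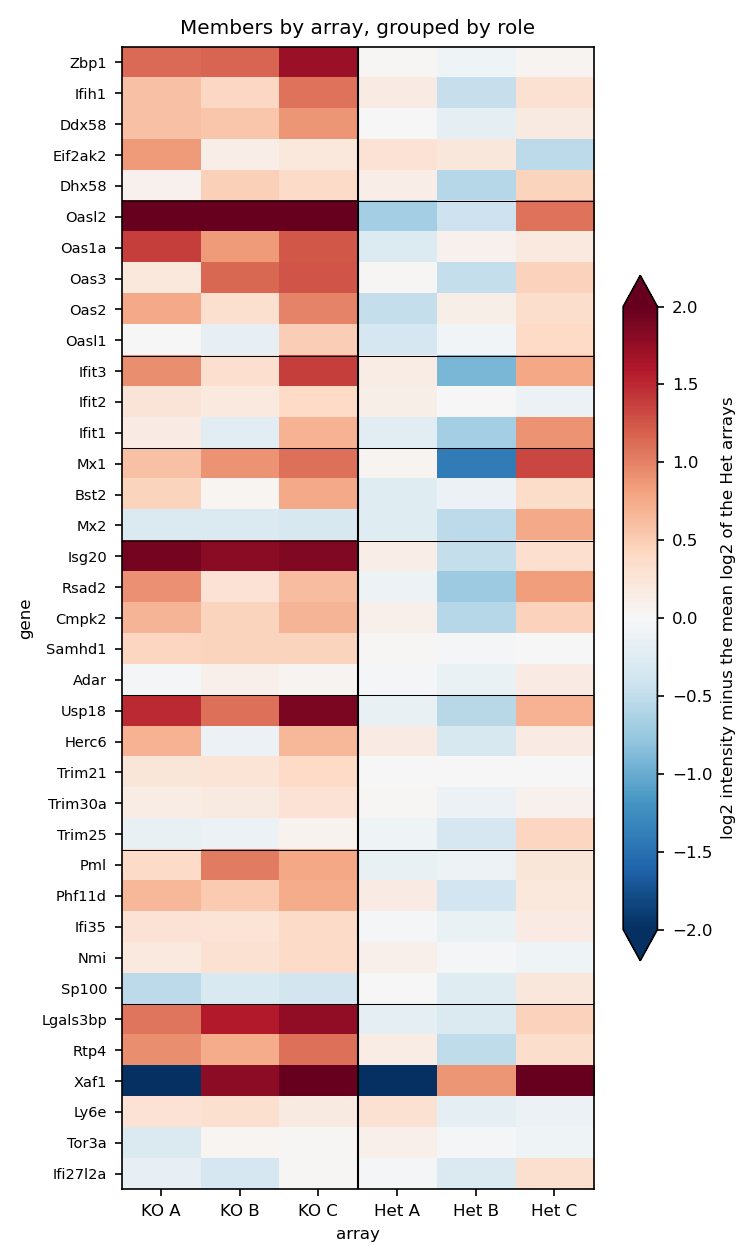
Log2 intensity of each of the 37 members on each array minus the mean log2 of the 3 Het arrays, with KO arrays on the left, Het arrays on the right and horizontal lines between role groups; colours saturate at 2. The columns of KO C and Het C are the reddest of their groups and Het B the bluest, with medians of 0.68, 0.32 and -0.23, and the Xaf1 row runs from blue to red from A to C in both groups.

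Upstream of the members, neither the ligands nor the receptor passed the test. Of 16 type I interferon genes 4 were measured, and 0 passed (limma; also 0 before adjustment at p under 0.05). Ifnb1, the interferon beta gene, read 17.45 ± 0.11 in KO and 17.80 ± 0.54 in Het (SD, n = 3), below the median of its array on all 6, and Ifna1 differed by log2 0.08. Of 6 measured genes of the receptor and ISGF3, 0 passed (limma; before adjustment, Stat2 was higher and Ifnar2 lower at p under 0.05), at a median of 0.09. Ifnar2, the signalling chain of the receptor, read 3162, 3155 and 3112 in KO, against 4091, 4089 and 3791 in Het (log2 -0.34, adjusted p = 0.0836), and Stat2 gave 0.74 (adjusted p = 0.153), both without overlap. Among 11 genes of upstream sensing 1 fell and 0 rose, where 0.956% of all genes fell and 1.37% rose. Before adjustment, 2 were lower and 1 higher at p under 0.05 (limma), against 11.6% and 10.7% of all genes. The gene that fell was Tlr7, an endosomal receptor for single-stranded RNA. Tlr7 read 90.33, 101.4 and 110.2 in KO, against 353.1, 244.5 and 272 in Het (log2 -1.51 ± 0.16, SE; adjusted p = 0.0253 by limma).

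Among genes linked to interferon gamma more passed the test. Of 16 measured genes with a strong interferon gamma response 9 rose and 0 fell, where 1.37% of all genes rose and 0.956% fell. Their median difference was 0.87. Every KO array stood above every Het array for 15 of them, against 13.2% of all genes. This list, like the members, was chosen with earlier results of these arrays known. Many of these genes also answer to type I interferon, and the difference between the lists was not tested. The genes of that list with the smallest p were Gbp2, a guanylate-binding protein (4.78-fold), Psmb9, an immunoproteasome subunit (1.82-fold), and Tap1 and Tap2, which form the peptide transporter (2.54-fold and 2.02-fold), with adjusted p between 0.0191 and 0.0253 by limma. Ifng itself was the 1 of 4 genes of interferon gamma and its receptor that rose, at 663.4, 750.6 and 1104 in KO, against 240.6, 203.8 and 174.7 in Het (log2 2.001 ± 0.23, SE; adjusted p = 0.0263). Irf1, a factor that interferon gamma induces strongly, was the 1 of 7 measured regulatory factors that rose (2.31-fold, adjusted p = 0.0424). Socs3, an inhibitor of cytokine receptors, was the 1 of 5 inhibitors that rose (3.87-fold, adjusted p = 0.0222).

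**Figure D5:**
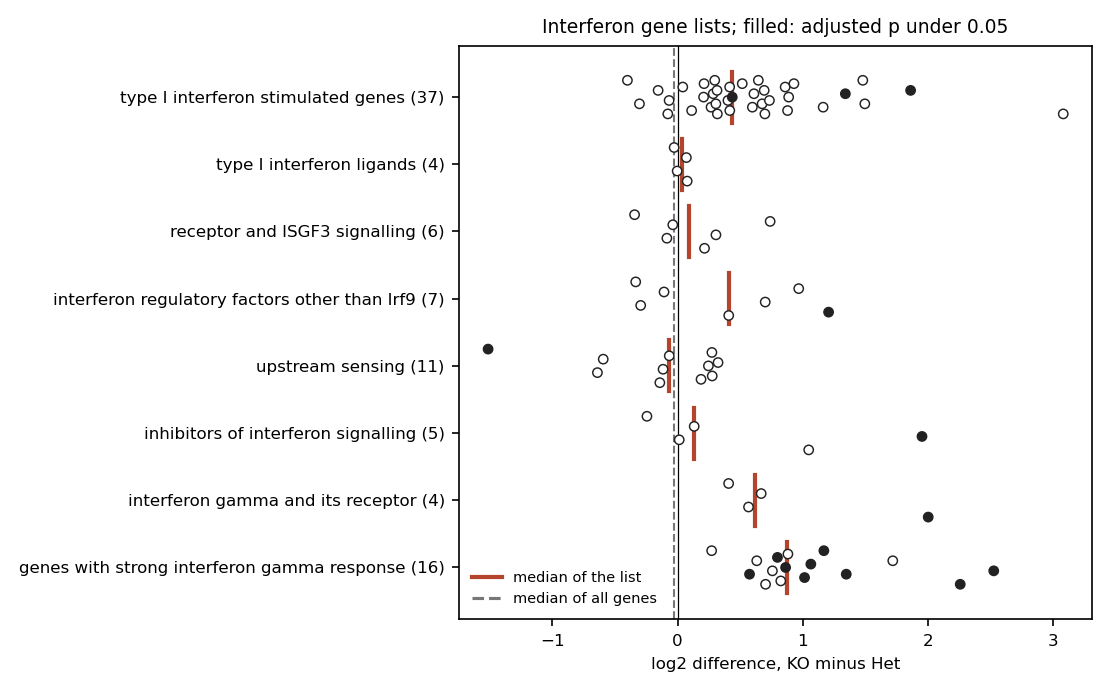
Log2 difference, KO minus Het, of each measured gene (points, filled where adjusted p was under 0.05; vertical scatter within a row has no meaning) for the members and 7 lists of the interferon pathway, with the number measured in brackets, the median of each list in red and the median of all genes as a dashed line. Medians lie at 0.44 for the members, 0.03 for the ligands, 0.09 for the receptor and ISGF3 and 0.87 for genes with a strong interferon gamma response.

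The differences were then set beside the promoter letters. Among the 27 members with both a value and a promoter, the 13 with a response element core had a median difference of 0.42, and the 14 without one 0.48. The 8 with a gamma-activated site core had a median of 0.41 and the 19 without one 0.60. KO stood above Het on every array for 5 of the 13 with a response element core and for 9 of the 14 without. The same held for 5 of the 8 with a gamma-activated site core and for 9 of the 19 without. Isg20 and Samhd1, the 2 called members with a promoter, were among those with a gamma-activated site core and among those without a response element core. None of these differences was tested.

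Markers of other cells were read beside these results. The summed intensity of 5 B cell markers was 1886, 5029 and 2048 in KO A, B and C, against 1043, 2456 and 1079 in Het, and that of Cd8a and Cd8b1 670.2, 4415 and 636.3 in KO, against 908.6, 2257 and 650.7 in Het, so both B arrays stood out in their groups. The B cell sum was higher in KO than in Het at each letter, but the groups overlapped, with KO A and KO C below Het B. Of these markers Cd22 alone stood apart, at 1063, 2980 and 1312 in KO, against 533.7, 839.6 and 533.7 in Het. Its log2 difference was 1.37 (adjusted p = 0.173 by limma). The 5 myeloid markers summed to 446.5, 1655 and 671.3 in KO, against 271.2, 592.2 and 313.9 in Het. This sum too was higher in KO at each letter, but KO A lay below Het B. The difference lay mostly in Lyz2, at 231.6, 1408 and 440.8 in KO, against 50.6, 381.4 and 97.37 in Het. Lyz2 overlapped between the groups (log2 2.09, adjusted p = 0.318 by limma). Csf1r (log2 0.06) and Adgre1 (log2 0.22) differed little and overlapped, and Itgam and Cd14 were below the filter. The 3 NK cell markers summed to 122.4, 1652 and 119.6 in KO, against 102.2, 598.8 and 115.01 in Het, most of it Klrd1 on the B arrays, with Ncr1 below the filter. Without both B arrays the median difference of the members was 0.41, and 0 members were called (limma; before adjustment, 12 were higher and 1 lower at p under 0.05). The plasma cell list summed to 14990 to 20590 in KO, against 8815 to 9085 in Het, with 3 of 4 markers above Het on every KO array. The other marker, Sdc1, lay slightly below Het on every KO array (log2 -0.09, adjusted p = 0.565 by limma). Most of the plasma cell sum was Xbp1, a secretory pathway factor not limited to plasma cells, which rose (log2 0.89, adjusted p = 0.0270). Jchain, the joining chain of secreted antibody, read 388.8, 3197 and 2623 in KO, against 11.46, 163.1 and 13.59 in Het (log2 5.66 ± 1.32, SE; adjusted p = 0.101), so its KO arrays stood far above the Het arrays. The 5 markers of plasmacytoid dendritic cells, the cells best known for making type I interferon, summed to 1025 to 1886 in KO, against 1256 to 1858 in Het, and their members ran in different directions. Ly6d read 119.1, 395.8 and 53.12 in KO, against 31.44, 38.2 and 14.65 in Het (log2 2.38, adjusted p = 0.193). Tcf4 read 135, 278.9 and 157.9 in KO, against 338, 569.1 and 448.1 in Het (log2 -1.29, adjusted p = 0.120). Neither of these overlapped, and Siglech, a defining marker of these cells, lay at 22.28 to 37.28, below the median of every array. The 3′ to 5′ ratio of the Gapdh control, a sign of RNA quality, was 1.24, 1.59 and 1.31 in KO, against 1.33, 1.37 and 1.49 in Het, with overlap. The part of these cells and of RNA quality in the members' differences was not tested beyond these fits.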

How the data were processed

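RNA of 6 samples was measured on 1-colour expression arrays. Total RNA was extracted with TRIzol, amplified with the MessageAmp II kit and labelled with biotin, per the labels. The authors deposited 1 intensity per probe set, normalized with GCRMA per the labels; software version and genome build are not given in the sources used here. GCRMA subtracts a sequence-based background, which can enlarge folds of dim probe sets. The intensities ran from 1.23 to 170023, so they are linear, and log2 was taken. Median intensities were 58.1 to 61.5 per array, and 3 arrays per group limit the precision.

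Of 45101 probe sets, 64 controls and 1 with missing values were left out. The 29507 with log2 above 4 on at least 3 of 6 arrays were tested, and 13280 genes had a tested probe set with a single symbol in the platform annotation (34958 of all probe sets had 1 symbol, 932 several and 9211 none). The contrast KO minus Het was fitted with lmFit and eBayes of limma 3.58.1 under R 4.3.3 (two-sided, no covariate), with Benjamini-Hochberg adjustment over all tested probe sets and a threshold of 0.05. The steps were tested on simulated data. The members, the lists and this naming rule were chosen with earlier results of these data known. The rule gives every array's value for members past the threshold, for 12 further members by smallest p with groups that do not overlap, and for the largest difference in each role group. From each pathway list it names up to 4 genes past the threshold, or 2 where 0 passed, by smallest p. Other tested probe sets of a member stand beside it, and a dim probe set each of Dhx58, Tor3a and Pml was not tested. Promoters came from RefSeq (GRCm38.p6). Alternatives were a looser and a stricter filter, quantile normalization or median centring of the arrays, a robust trended fit, weighted arrays, averaged probe sets per gene, the array letter as a block, a beta-actin covariate and leaving out arrays.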

Additional observations from a re-analysis of the deposited data

How the results depend on the processing

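The median difference of the members stayed positive under all 16 alternatives, between 0.32 and 0.66, and 29 to 35 of 37 members were positive (32 of 36 under the stricter filter). The calls were less stable. Leaving out 1 array at a time gave 0 members higher in every case, 0 to 176 probe sets called and a median of 0.32 (without Het B) to 0.66 (without Het C). Without both B arrays 0 members and 0 probe sets were called, the beta-actin covariate left 1 member (Isg20), and array weights called 957 probe sets. With the array letter as a replicate block 0 members and 0 probe sets were called (limma; before adjustment, 20 members were higher at p under 0.05). Same-letter deviations of KO and Het correlated at 0.28 for A, -0.17 for B and 0.01 for C, and those of different letters at -0.45 to 0.37. The same-letter values lay within that range, so they cannot decide whether the arrays of a letter form a pair. The fit with the letter as a block is therefore not set aside. A few genes and the markers high on both B arrays did follow the letters in both genotypes, and what the letters mark is not known here. Samhd1 also lost its call under 4 alternatives that kept all arrays and added no term (adjusted p = 0.0521 under the stricter filter, 0.0676 with quantile normalization, 0.0722 with median centring and 0.139 with the probe set mean), and Zbp1 without a filter (adjusted p = 0.0515). With the covariate Samhd1 was at 0.0635 and Zbp1 at 0.0525. Calls were also gained: Oas1a passed under the stricter filter (adjusted p = 0.0419), with array weights (0.0363) and with the probe set mean (0.0352), and Lgals3bp under the stricter filter (0.0496) and with the probe set mean (0.0443).

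Directions turned for members close to 0 or with uneven arrays. With the probe set mean Trim25 gave 0.0850 and Adar -0.12, and without both B arrays Adar gave -0.0571 and Dhx58 -0.0473. Leaving out 1 array at a time, the difference lay between -0.0270 and 0.12 for Adar, -0.299 and 0.00207 for Ifi27l2a, -0.13 and 0.66 for Ifit1, -0.563 and 0.0751 for Mx2, -0.0814 and 0.309 for Oasl1, -0.137 and 0.0304 for Tor3a, -0.238 and 0.15 for Trim25, and -1.26 and 2.47 for Xaf1. The cause was not tested. Probe sets near the floor of GCRMA, such as Mx2, allow no firm direction.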

Other observations

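Xaf1 was one of few genes that differed between the array letters in the same order in both genotypes. Of 29507 probe sets, 16 had the same order of A, B and C in KO and in Het and spanned more than 3 on the log2 scale in each; 11 of them had 1 symbol, and both Xaf1 probe sets were among these. Gt(ROSA)26Sor, the transcript of the locus that holds the YFP reporter, was another: it read 1046, 1287 and 12.93 in KO A, B and C, against 1011, 1204 and 14.75 in Het A, B and C, so that both C arrays were near the floor. Fosb, an activation-induced transcription factor, read 1204, 50.31 and 3097 in KO, against 140.7, 42.98 and 355.1 in Het. These genes were picked after their values were seen.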
